A study of Mus musculus with 6 samples.

Results

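The genes described here encode nuclear-coded parts of respiratory complexes II, III, IV and V and cytochrome c, the segment of the mitochondrial respiratory chain beyond complex I together with the ATP synthase. The members were chosen by name, as 39 listed genes, and each was read from the probe set with the highest mean log2(intensity + 1) among those annotated to that gene alone. Of these 39 genes, 37 had such a probe set among the 12394 genes tested. They were 4 of complex II, 9 of complex III, cytochrome c (Cycs), 8 of complex IV and 15 of complex V. Cox7b and Cox10 were not analysed here.

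Affymetrix arrays measured RNA from subcutaneous white fat of 8-week-old mice on a mixed C57BL6 and 129 background, after 2 weeks of high fat diet. All mice carried YY1flox/flox alleles, in which Yy1, the gene of the zinc finger transcription factor YY1, can be deleted. The 3 control arrays came from floxed mice, and the 3 YY1bKO arrays from floxed mice that also carried Ucp1Cre, a Cre recombinase under Ucp1 regulatory sequences that acts mainly in brown and beige adipocytes. No group carried Cre without floxed Yy1, so Cre itself and loss of YY1 cannot be told apart. The titles read IWAT, the usual abbreviation of inguinal white fat. Nothing in the labels states that replicates came from separate animals, so p-values measure only the spread between these samples, which may be technical.

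Complex II (succinate dehydrogenase) passes electrons from succinate to ubiquinone, complex III passes them on to cytochrome c, and complex IV hands them to oxygen, while complexes III and IV pump protons. Complex V, the ATP synthase, lets those protons return and makes ATP. In brown and beige adipocytes UCP1 offers the protons another way back, so that respiration yields heat, and such cells hold many mitochondria. Adipocytes of classical brown fat hold comparatively little ATP synthase. YY1, NRF1, factors of the ETS family such as GABP, and the ERR nuclear receptors are known regulators of respiratory chain genes. White adipocytes express the same genes at lower levels.

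The promoters of the members are shown first because the genes of all 4 complexes were mostly displaced in the same direction between the groups. RefSeq windows of 300 bases (250 before the start site and 50 from it on, build GRCm38.p6) were found for 31 of the 39 listed genes. Sdhc, Uqcrc2, Uqcrb, Uqcrq, Cyc1, Cox6c, Cox17 and Atp5a1 had no entry. Each stretch printed here holds 110 bases before the start site and 30 from it on, 5′ to 3′ on the gene's own strand, and capitals mark the letters searched for or their reverse complement. Sdhb, Uqcr11 and Sdha are the members with the smallest p that had a window, Atp5b, a catalytic subunit gene, holds the YY1 letters just after its start site, and Atp5g1 is the one whose mean was lower in YY1bKO by the most.
Sdhb, chr4:140961161-140961300, plus strand: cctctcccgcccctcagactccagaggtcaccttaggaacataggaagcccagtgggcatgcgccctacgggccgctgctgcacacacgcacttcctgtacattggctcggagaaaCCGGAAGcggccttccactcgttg
Uqcr11, chr10:80406792-80406931, minus strand: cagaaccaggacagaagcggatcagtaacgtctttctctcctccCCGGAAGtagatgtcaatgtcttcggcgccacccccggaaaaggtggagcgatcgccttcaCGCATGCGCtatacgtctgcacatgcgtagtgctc
Sdha, chr13:74350211-74350350, minus strand: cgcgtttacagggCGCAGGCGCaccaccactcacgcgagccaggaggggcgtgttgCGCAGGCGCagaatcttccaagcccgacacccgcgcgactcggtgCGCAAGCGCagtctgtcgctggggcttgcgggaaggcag
Atp5b, chr10:128083197-128083336, plus strand: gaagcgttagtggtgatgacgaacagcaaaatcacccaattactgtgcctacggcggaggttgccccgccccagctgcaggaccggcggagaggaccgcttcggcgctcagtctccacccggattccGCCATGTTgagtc
Atp5g1, chr11:96075602-96075741, minus strand: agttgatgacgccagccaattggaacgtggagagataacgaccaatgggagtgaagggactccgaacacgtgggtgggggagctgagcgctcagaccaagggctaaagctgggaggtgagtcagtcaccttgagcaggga
The capitals are the ETS letters in Sdhb, the ETS and then the NRF1 letters in Uqcr11, 3 NRF1 matches in Sdha and the YY1 letters in Atp5b, while Atp5g1 holds none of the 4 motifs.

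Over the whole windows, on either strand, the NRF1 letters GCGCNTGCG occurred in 14 of the 31 members (45.2%), against 7.12% of all 27025 genes with a window and 12.6% of the 9888 tested genes with one. The ETS letters CCGGAAG occurred in 12 members (38.7%, against 9.93% and 16.3%). The YY1 letters AANATGGC occurred in 6 (19.4%, against 6.96% and 8.55%), namely Atp5b, Atp5f1, Atp5j, Atp5j2, Cox10 and Cox7b. The ERR letters AAGGTCA occurred in 5 (16.1%, against 5.38% and 4.36%), namely Atp5e, Atp5g3, Atp5k, Atp5l and Sdhd. The NRF1 letters nearly mirror themselves, so a match on each strand can overlap at the same place, as in Atp5k, Atp5g2 and Uqcrc1. Median GC content was 58.2% in the member windows and 59% in those of tested genes. These matches describe letters and show no binding. Of the 11 members with a window and an unadjusted limma p under 0.05, 3 held the NRF1 letters and 7 the ETS letters, against 11 and 4 of the 18 other measured members with a window. The YY1 letters were held by 2 of the 11 and 2 of the 18, and the ERR letters by 1 and 4. At least 1 of the motifs was held by 25 of the 31 members (80.6%), against 34.6% of tested genes with a window. The 6 members that held none were Atp5g1, Cox5a, Cox5b, Cox7a2l, Cox7c and Uqcrfs1. The lower mean of Atp5g1 in YY1bKO rested on control replicate 2, as described below.

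Transcripts of complexes II to V were modestly higher in YY1bKO fat. The mean was higher in 35 of 37 members, against 51.0% of all genes, and the median log2 difference of YY1bKO minus control was 0.23 (1.17-fold), against a median of 0.00 over all genes. Because 1 was added to each intensity before taking log2, folds of dim genes are slightly too small. Differences ran from -0.42 (Atp5g1) to 0.77 (Uqcrq), and 29 members lay between 0.1 and 0.4. Single members did not pass the test: 0 of 37 had an adjusted p under 0.05 by limma (background 0.0323% of genes), and the lowest adjusted p was 0.147, for Uqcrq and Sdhb. Without adjustment, 16 members were higher at a p under 0.05 (background 8.45%) and 0 were lower (background 1.99%). In 24 members every YY1bKO array lay above every control array (background 11.5%), and in 0 members did every YY1bKO array lie below (background 5.0%). The members are bright, 36 of them above the median brightness of all genes, and bright genes leaned upwards too. Among the 7085 genes with a probe set above the 50th percentile of brightness, 57.8% had a higher mean. Of these genes 11.5% were higher at an unadjusted p under 0.05 and 15.8% lay clear of the controls. Most members lie far above that percentile. The shares among genes as bright as the members were not computed, so brightness is not allowed for in these counts. The count of 16 rested on particular arrays: it was 7 without control replicate 3, 7 without YY1bKO replicate 1 and 8 without YY1bKO replicate 3. The share over all genes was lower in these fits too, at 7.29%, 5.02% and 4.55%, while the median over the members stayed between 0.19 and 0.27 when any 1 array was left out.

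**Figure D1:**
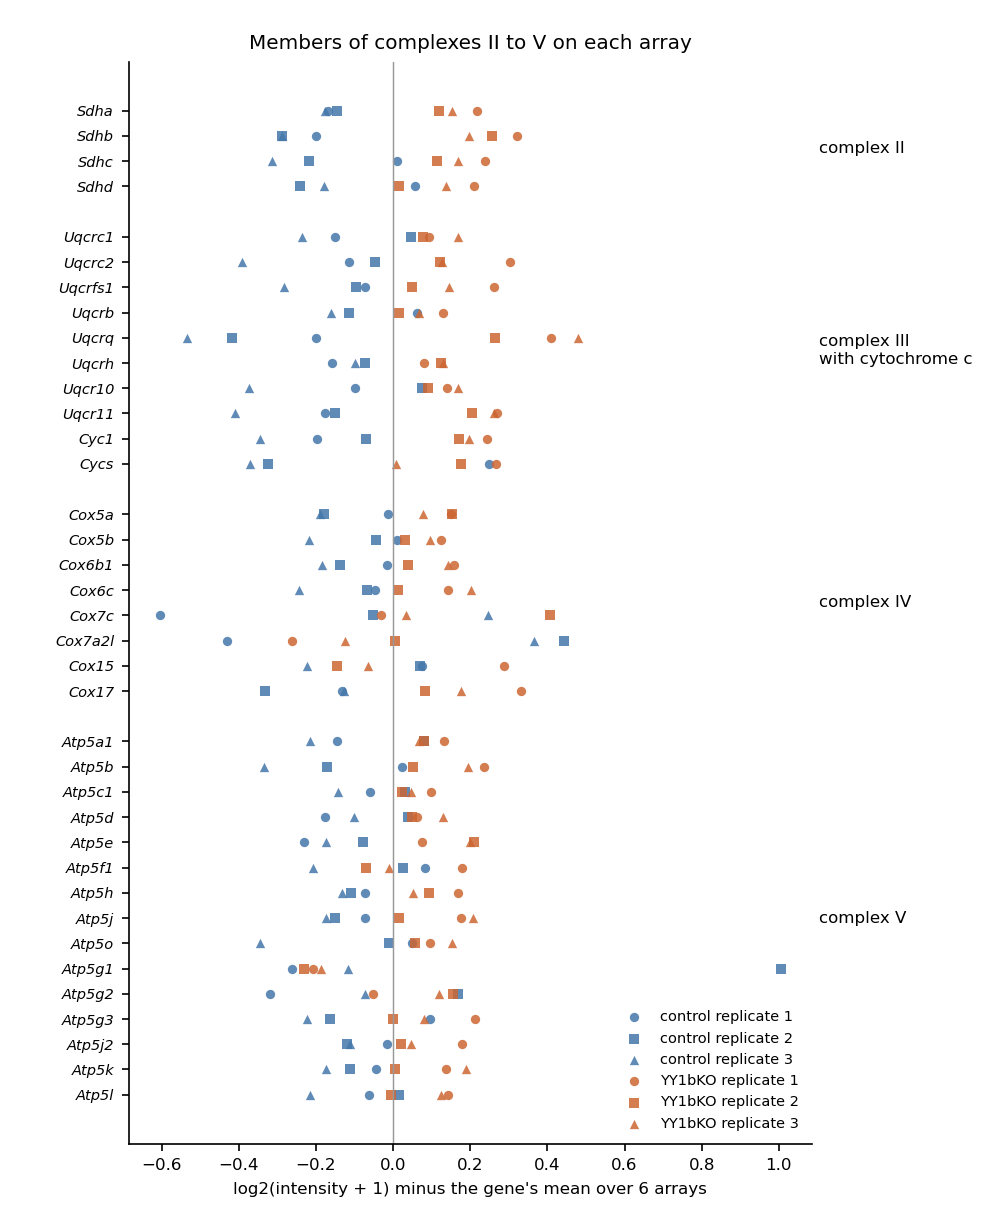
Each row is a member and each point an array: log2(intensity + 1) minus the gene's mean over the 6 arrays, control arrays in blue and YY1bKO arrays in orange, with a marker shape per replicate. In 24 of the 37 rows all orange points lie to the right of all blue points, and the point farthest to the right is Atp5g1 in control replicate 2.

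The shift differed in size from complex to complex, as a description and without a test between them. The median log2 difference was 0.34 in complex II (4 genes), 0.30 in complex III with cytochrome c (10 genes), 0.23 in complex IV (8 genes) and 0.19 in complex V (15 genes). All 4 complex II genes, all 10 of complex III with cytochrome c, 7 of 8 of complex IV and 14 of 15 of complex V had higher means. In complex II 3 of 4 genes reached an unadjusted limma p under 0.05, in complex III with cytochrome c 6 of 10, in complex IV 3 of 8 and in complex V 4 of 15, beside the background of 8.45%.

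**Figure D2:**
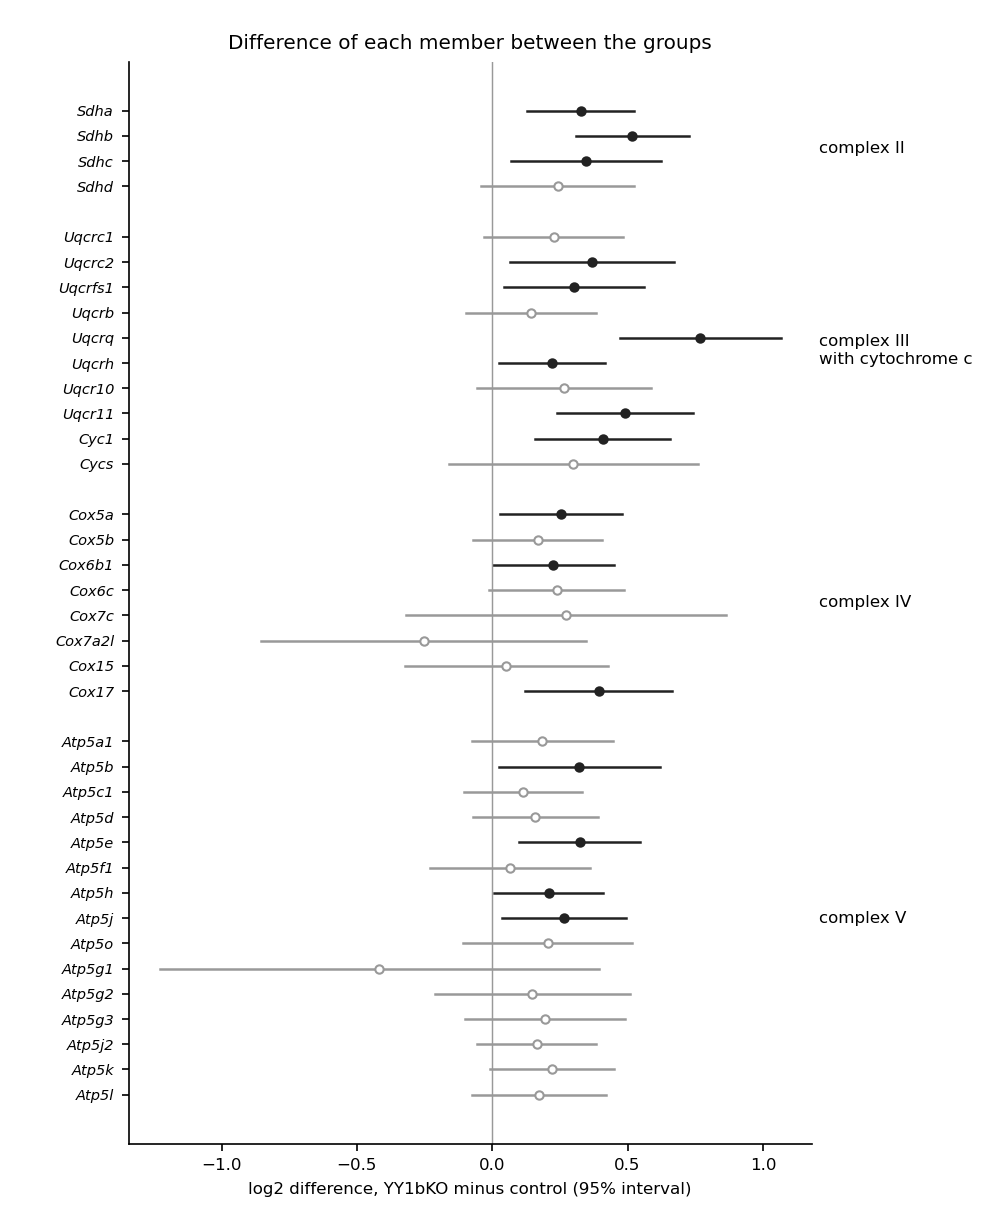
Points are log2 differences of YY1bKO minus control (n = 3 arrays each) with 95% intervals from limma, grouped by complex; filled black points have an unadjusted limma p under 0.05 and open grey points do not. The 16 filled points all lie to the right of 0, and the widest intervals belong to Atp5g1, Cox7a2l and Cox7c.

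Of complex II, Sdhb, the iron-sulfur subunit that carries electrons towards the membrane, was the most clearly separated. Its log2 values were 11.41, 11.32 and 11.32 for control replicates 1 to 3 and 11.93, 11.86 and 11.80 in YY1bKO replicates 1 to 3. The gap between the groups was several times the width of either group. Between means the log2 difference came to 0.52 ± 0.09 (SE, n = 3 in each group; 1.43-fold), with a limma adjusted p of 0.147. Sdha, the flavoprotein subunit that oxidises succinate, had control values of 11.58, 11.61 and 11.58, the narrowest range of any member among controls. Its YY1bKO values of 11.97, 11.87 and 11.91 all lay above them, and the difference was 0.33 ± 0.08 (adjusted p = 0.276 by limma). Sdhc, a membrane anchor of the complex, had values of 10.03, 9.80 and 9.70 against 10.26, 10.13 and 10.19, with a difference of 0.35 ± 0.11 (adjusted p = 0.378). Sdhd, the other anchor, was the only gene of the complex whose groups overlapped, with 10.93, 10.63 and 10.69 against 11.08, 10.89 and 11.01. Its difference of 0.24 had a 95% interval from -0.04 to 0.52.

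Complex III held the member with the largest difference. Uqcrq, a small accessory subunit also known as the ubiquinone-binding protein QP-C, had log2 values of 11.43, 11.21 and 11.09 on control arrays and 12.04, 11.89 and 12.11 on YY1bKO arrays. The groups were far apart, with a log2 difference of 0.77 ± 0.12 (SE; 1.70-fold; limma adjusted p = 0.147). Its 3 other probe sets, which were dim, gave differences of -0.12, 0.03 and 0.05. Uqcr11, another small subunit, had control values of 11.46, 11.48 and 11.22 and YY1bKO values of 11.90, 11.84 and 11.89, a difference of 0.49 ± 0.10 (adjusted p = 0.217). Cyc1, cytochrome c1, which hands electrons to cytochrome c, had 11.47, 11.60 and 11.32 against 11.91, 11.84 and 11.86. The YY1bKO arrays of Cyc1 lay close together and above all controls, with a difference of 0.41 ± 0.10 (adjusted p = 0.279).

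The other catalytic and core subunits of complex III had smaller estimates, without a test between genes. The Rieske iron-sulfur protein gene Uqcrfs1 had values of 11.53, 11.51 and 11.32 on control arrays and 11.87, 11.65 and 11.75 on YY1bKO arrays, a log2 difference of 0.30 ± 0.11 (limma adjusted p = 0.413). Uqcrc2, a core subunit, had a difference of 0.37 ± 0.12, and its partner Uqcrc1 one of 0.23 ± 0.11. In each of these genes every YY1bKO array lay above every control array, although in Uqcrc1 the nearest values were 11.35 and 11.38. Uqcrh, the acidic hinge protein that helps cytochrome c dock, had a difference of 0.22 between tight groups (control SD 0.04, YY1bKO SD 0.03). Uqcr10 had a difference of 0.26 in the probe set used here and of 0.68 and 1.05 in 2 dimmer ones. Uqcrb, at 0.14, was the only complex III subunit whose groups overlapped.

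Cycs, the mobile electron carrier cytochrome c, which also triggers caspase activation when it leaves the mitochondrion, did not separate the groups. Its log2 values were 12.82, 12.25 and 12.20 on control arrays and 12.84, 12.75 and 12.58 on YY1bKO arrays. Control replicate 1 lay at the level of the YY1bKO arrays and the other controls below them. The log2 difference was 0.30 ± 0.19 (SE; limma adjusted p = 0.658). It was 0.50 without control replicate 1, 0.21 without control replicate 2 and 0.19 without control replicate 3, and its 3 probe sets gave 0.30 to 0.40.

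**Figure D3:**
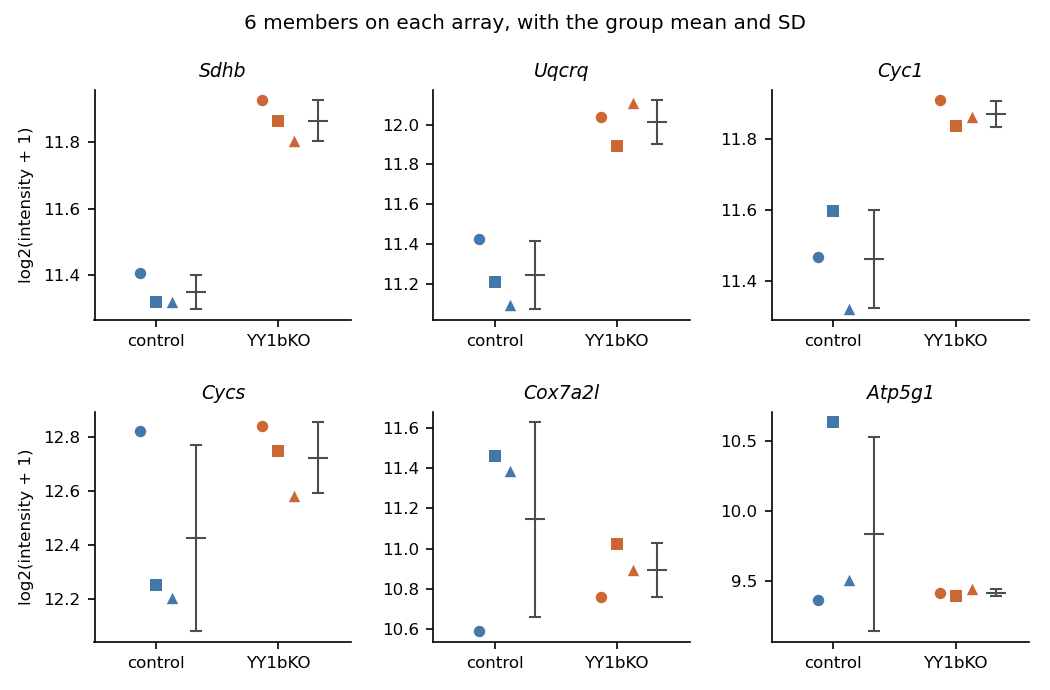
Points are log2(intensity + 1) on each array for Sdhb, Uqcrq, Cyc1, Cycs, Cox7a2l and Atp5g1, control in blue and YY1bKO in orange, with circles, squares and triangles for replicates 1, 2 and 3, each gene on its own axis, which does not start at 0; the bar beside each group is its mean with the SD (n = 3). The upper 3 genes separate the groups, whereas in Cycs and Cox7a2l control replicate 1 stands apart from the other controls and in Atp5g1 control replicate 2 does.

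Among the structural subunits of complex IV the differences were small and alike. Cox5a, a subunit on the matrix side of the catalytic core, had log2 values of 12.36, 12.20 and 12.18 on control arrays and 12.52, 12.53 and 12.45 on YY1bKO arrays, a difference of 0.25 ± 0.09 (SE; limma adjusted p = 0.429). Cox6b1, the subunit that bridges the monomers on the intermembrane side, had 12.86, 12.74 and 12.70 against 13.04, 12.92 and 13.02. Its difference was 0.23 ± 0.09 (adjusted p = 0.475). Cox6c (0.24) and Cox5b, a zinc-binding subunit (0.17), were also clear of the controls on every array, by small margins. Cox7c was read from a dim probe set with intensities of 88.8 to 180.2, and its groups overlapped, with a difference of 0.27 ± 0.24.

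The assembly genes of complex IV differed from each other. Cox17, the chaperone that delivers copper for the catalytic core, had log2 values of 10.77, 10.56 and 10.77 on control arrays and 11.23, 10.98 and 11.07 on YY1bKO arrays. All YY1bKO arrays lay above the controls, with a difference of 0.39 ± 0.11 (limma adjusted p = 0.323), the highest among the 8 measured members of complex IV. The other probe set of Cox17, which was dim, gave 0.09. Cox15, which makes heme A, showed a difference of 0.05 ± 0.15, and its YY1bKO values (7.96, 7.52 and 7.61) spanned its control values (7.74, 7.74 and 7.44) except the lowest. Cox7a2l, which joins complexes III and IV into supercomplexes, had 10.59, 11.46 and 11.39 on control arrays and 10.76, 11.02 and 10.90 on YY1bKO arrays. Its mean was lower in YY1bKO, by -0.25 ± 0.25 (adjusted p = 0.776), and all 3 of its probe sets gave negative differences (-0.25 to -0.14). The lowest value was a control array, and without control replicate 1 the difference was -0.53 (adjusted p = 0.145, in a range that reached 0.9996 over the alternatives). Control replicate 1 and YY1bKO replicate 1, the arrays with the lowest Cox7a2l, also had the lowest summed intensity of the 8 B and T lymphocyte markers, 461 and 417 against 1977 to 9412 on the other arrays, and the part of those cells in the Cox7a2l values was not tested.

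In complex V the F1 genes, which form the catalytic head and its rotor, all had higher means. Atp5b, the catalytic beta subunit, had log2 values of 13.16, 12.96 and 12.80 on control arrays and 13.37, 13.18 and 13.33 on YY1bKO arrays, a difference of 0.32 ± 0.12 (SE; limma adjusted p = 0.452). Its lowest YY1bKO array lay just above its highest control. Atp5e, the epsilon subunit of the rotor, had 11.35, 11.50 and 11.40 against 11.65, 11.79 and 11.78, a difference of 0.32 ± 0.09 (adjusted p = 0.324) between well separated groups. Atp5a1, the alpha subunit (0.19), Atp5d, the delta subunit (0.16), and Atp5c1, the gamma subunit of the shaft (0.11), had smaller differences, and of these only Atp5d was clear of the controls.

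The peripheral stalk holds the head still while the rotor turns. Atp5j, its coupling factor F6, had log2 values of 11.95, 11.87 and 11.84 on control arrays and 12.19, 12.03 and 12.23 on YY1bKO arrays, a difference of 0.27 ± 0.09 (limma adjusted p = 0.417). Atp5h, the d subunit, had a difference of 0.21 ± 0.08, and Atp5o, the oligomycin sensitivity conferring protein, one of 0.20 ± 0.13. These 3 genes were clear of the controls. Atp5f1, the b subunit, annotated as Atp5pb in the array's gene table, showed 0.07 ± 0.12 with overlapping groups.

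The membrane part of complex V carries the c ring, whose subunit is made from Atp5g1, Atp5g2 and Atp5g3, a set of genes known to encode the same mature protein behind different import sequences. Atp5g3 had log2 values of 13.41, 13.15 and 13.09 on control arrays and 13.52, 13.31 and 13.39 on YY1bKO arrays, with a difference of 0.19 ± 0.12. Atp5g2 had a difference of 0.15 ± 0.15, again with overlapping groups. Atp5g1 had 9.37, 10.63 and 9.51 on control arrays and 9.42, 9.40 and 9.44 on YY1bKO arrays. Its YY1bKO range was the narrowest of any member, and 1 control array stood more than a log2 unit above all others. The difference of -0.42 ± 0.33 (limma adjusted p = 0.726) became -0.02 without control replicate 2. That array also had a summed intensity of 11800 for the 10 epithelial markers, against 363 to 559.5 on the other arrays, and whether such tissue carried the Atp5g1 signal was not tested. Of the small subunits at the dimer interface, Atp5k (subunit e) had a difference of 0.22, Atp5l (subunit g) 0.17 and Atp5j2 (subunit f) 0.16. Atp5k and Atp5j2 were clear of the controls and Atp5l was not. Of the 6 genes of the membrane part 0 reached an unadjusted limma p under 0.05, which is near the share of 8.45% over all genes.

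Further genes of the same complexes, from lists drawn up by function, showed similar differences. Subunits of complex IV outside the member list had a median log2 difference of 0.32 in 7 genes, of which 5 were higher at an unadjusted limma p under 0.05 (8.45% of all genes). Of these Cox4i1 had a difference of 0.33 ± 0.10, Ndufa4, counted today with complex IV, 0.33 ± 0.10, Cox7a2 0.32 ± 0.10 and the testis form Cox6b2, which is dim here, 0.37 ± 0.09. Among 13 assembly factors of complex IV 11 had higher means, with a median of 0.18 and 4 at an unadjusted limma p under 0.05, against the same 8.45%. Surf1, which acts early in complex IV assembly and whose loss causes Leigh syndrome, had control values of 9.88, 9.92 and 9.90 and YY1bKO values of 10.43, 10.33 and 10.47. That was a clear gap, with a difference of 0.51 ± 0.08 (SE; adjusted p = 0.147 by limma). Cox18, an insertase for a mitochondrially encoded subunit, had 0.38, Sco2, a copper chaperone, 0.29 and Coa3 0.23.

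Of the assembly genes of complexes II and III 0 reached an unadjusted limma p under 0.05, which is near the shares over all genes (8.45% higher and 1.99% lower). All 3 of complex II were higher in mean, by 0.10 to 0.14, and so were all 6 of the complex III list, by 0.17 to 0.29, led by Uqcc1. Of 7 further genes listed with complex V, 5 had higher means (51.0% of all genes), with a median of 0.22. The list held Atp5sl under that older symbol, a gene now named Dmac2 (-0.03), and its place in complex V was not checked. Atp5s (Dmac2l) had a difference of 0.54 ± 0.14, the assembly factor Atpaf2 0.43 ± 0.16, the Fmc1 gene 0.22 ± 0.10 and Usmg5 (Atp5md), a small subunit, 0.17 ± 0.09. Atpif1, the inhibitor of ATP hydrolysis by complex V, is named here after its values were seen. It was the only gene of these lists with every YY1bKO array (9.53, 9.60 and 9.58) below every control (9.73, 11.13 and 9.62), at -0.59 ± 0.40 (limma adjusted p = 0.689). Its highest value, like that of Atp5g1, was in control replicate 2.

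Of the 4 muscle and brown fat forms of complex IV subunits, Cox7a1 and Cox8b had larger differences than any member, without a test between them. Cox7a1 had log2 values of 7.11, 6.15 and 6.09 on control arrays and 8.69, 8.82 and 9.01 on YY1bKO arrays, a difference of 2.39 ± 0.29 (SE; limma adjusted p = 0.1005). Cox8b had 10.52, 9.43 and 9.64 against 11.43, 11.31 and 11.55, a difference of 1.57 ± 0.29 (adjusted p = 0.173). Cox6a2 (0.24) and Cox4i2 (0.08) had differences in the range of the members, with overlapping groups. Both were read from dim probe sets, with intensities of 60.1 to 96.1 and of 50.4 to 59.1. Complex I, the entry point for electrons from NADH, was displaced by about as much as complexes II and III. All 32 measured subunits had higher means (51.0% of all genes), with a median of 0.31, and 21 were higher at an unadjusted limma p under 0.05 (8.45% of all genes). Those of smallest p were, in that order, Ndufb10 (0.46), Ndufs3 (0.38), Ndufb9 (0.40) and Ndufa2 (0.32). Whether complex I differs from complexes II to V was not tested. Of 11 transcription regulators of respiratory genes 4 had higher means, with a median of -0.04. Ppargc1a, the coactivator of mitochondrial biogenesis, had 0.92 ± 0.27 (limma adjusted p = 0.326). It was read from a dim probe set, 1 of 5, with intensities of 47.5 to 140.0. Tfb2m had 0.21, Nrf1 -0.30 ± 0.17 and Yy1 -0.24 ± 0.12.

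**Figure D4:**
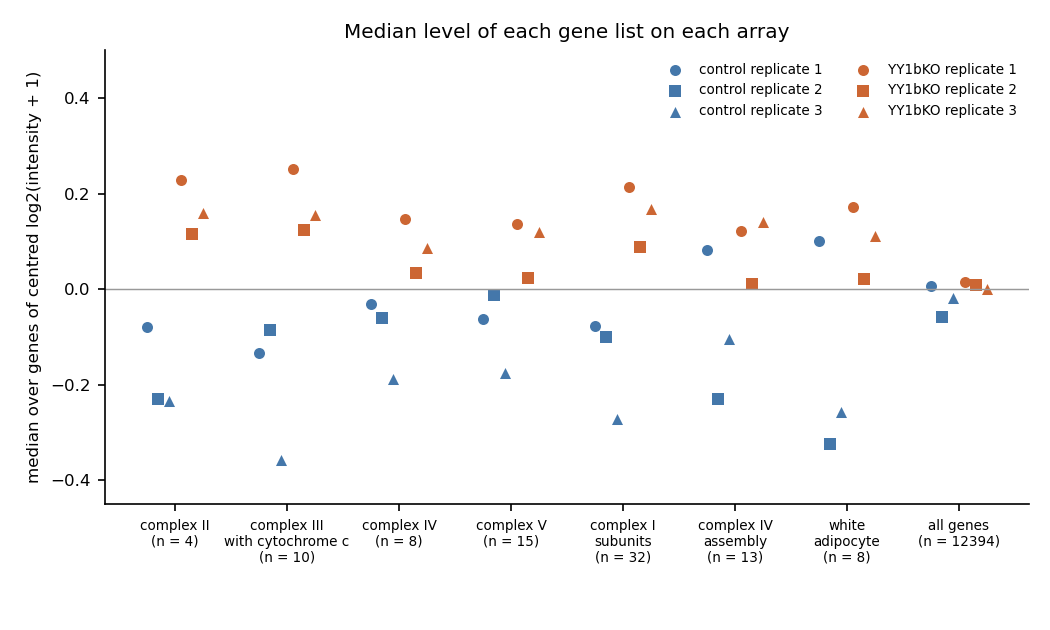
Points are the median over the genes of each list of centred log2(intensity + 1), meaning the value minus the gene's mean over the 6 arrays, for each array. In complexes I to V every YY1bKO array lies above every control array, whereas in complex IV assembly factors and white adipocyte markers control replicate 1 lies among the YY1bKO arrays and over all 12394 genes the arrays lie near 0.

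The arrays differed in ways the groups do not account for, and these values stand beside all results above. Of the 37 members, 22 had their highest value in YY1bKO replicate 1, 9 in YY1bKO replicate 3, 3 in YY1bKO replicate 2 and 3 in control replicate 2, while 27 had their lowest value in control replicate 3. The median centred value over the members was -0.07, -0.08 and -0.21 in control replicates 1 to 3 and 0.16, 0.06 and 0.13 in YY1bKO replicates 1 to 3. YY1bKO replicate 1 also had the highest summed intensity of the 12 skeletal muscle markers, 5261 against 620 to 1917, and the lowest of lymphocyte markers, and control replicate 3 had the highest of lymphocyte markers (9412). All 12 muscle markers had higher means in YY1bKO (median log2 difference 0.87), and all 8 lymphocyte (-0.54) and all 10 epithelial markers (-1.02) lower ones. The epithelial signal lay mostly in control replicate 2, with a summed intensity of 11800 against 363 to 559.5 on the other arrays. Of all genes 51.0% had a higher mean in YY1bKO. All 7 endothelial markers were also higher in mean, with a median of 0.37, as were 7 of 8 white adipocyte markers, with a median of 0.28, both above the median of 0.23 over the members. Of 8 macrophage markers 4 were higher in mean, with a median of -0.01. In bulk tissue fewer cells of a type and less RNA per cell cannot be told apart, and the part of these tissues in the members' values was not tested. Without YY1bKO replicate 1 the median over the members was 0.23, without control replicate 3 it was 0.19, and without both it was 0.17. In YY1bKO replicates 2 and 3 the muscle marker Myh4 (3.47 and 3.38) lay below its controls (3.69 to 4.27), Ckm (5.94 and 5.78) lay within or just below its controls (5.83 to 6.17), and of the 12 markers only Acta1 (9.04 and 10.62) lay above all controls (7.51 to 8.29) on both arrays.

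Markers of the labelled tissue were read in the same way. The adipocyte genes Adipoq (13.96 to 14.29 on the log2 scale) and Fabp4 (14.48 to 14.65) were high on every array, as labelled. The summed intensity of the 8 white adipocyte markers was 85210, 64790 and 69350 on control arrays and 85180, 78150 and 85020 on YY1bKO arrays, so control replicate 1 matched the YY1bKO arrays. Against control replicate 1, a single array, the members had median log2 differences of 0.23, 0.12 and 0.22 in YY1bKO replicates 1, 2 and 3. The median over all genes in these array pairs was not computed, and the part of adipocyte content in the members' values was not tested. Control replicate 1 and YY1bKO replicate 1 also shared the low lymphocyte signal, with summed intensities of 461 and 417. Over the 9 pairs of a YY1bKO and a control array the median ran from 0.12 to 0.36. Members varied more among the controls, where the median range between arrays was 0.26, than among YY1bKO arrays, where it was 0.14. Of the brown or beige adipocyte markers all 8 had higher means in YY1bKO, beside 51.0% of all genes. The adjusted limma test was passed by 2 of them, Ucp1 and the fatty acid binding protein gene Fabp3, beside 0.0323% of all genes. Ucp1 rose from log2 values of 5.71, 5.67 and 5.43 to 10.65, 11.01 and 10.91 (limma adjusted p = 0.000191). Yy1 itself did not pass (-0.24, limma adjusted p = 0.574), and whether its probe set lies in the deleted part was not checked.

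Where a member had more than 1 probe set, they mostly pointed the same way. Of the 39 probe sets that were not used, 32 gave a higher mean in YY1bKO and 7 a lower one. Among 25 members with several probe sets, the signs differed in 5, namely Atp5c1, Atp5g2, Cox15, Cox5b and Uqcrq. For Atp5c1, Atp5g2 and Uqcrq the probe set used was far brighter than those of the opposite sign. Cox5b had 6 probe sets with differences from -0.17 to 0.28, of which the 4 brightest lay between 0.13 and 0.28. Sdha reached 0.55 in its other probe set, against 0.33 in the one used.

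**Figure D5:**
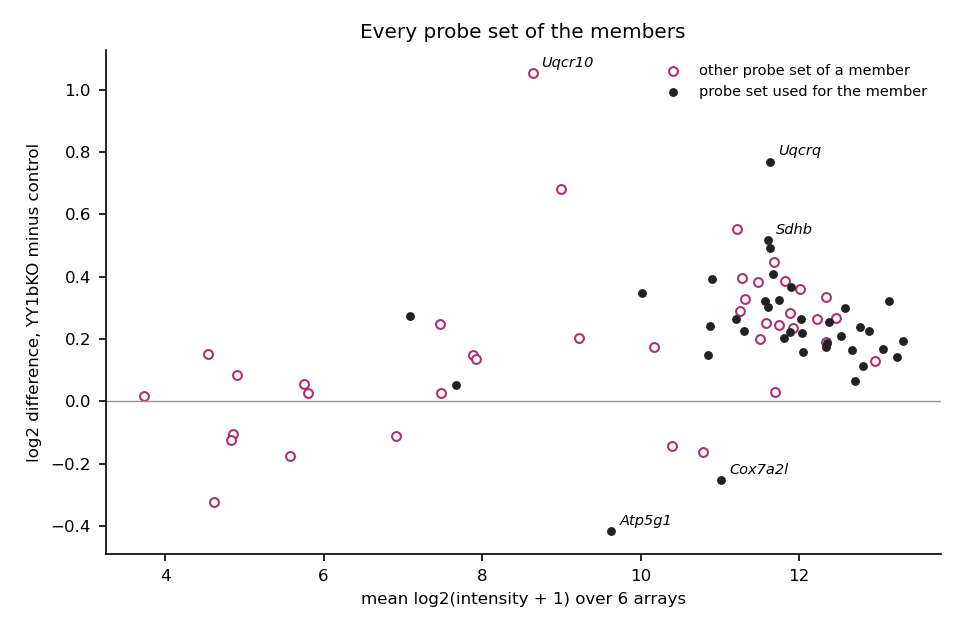
Each point is a probe set of a member, with its mean log2(intensity + 1) over the 6 arrays on the horizontal axis and its log2 difference of YY1bKO minus control on the vertical axis; filled points are the probe sets used. Above the line at 0 lie 35 of the 37 filled and 32 of the 39 open points.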

How the data were processed

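The authors deposited 1 intensity per probe set and array, made with RMA (version not given in the sources used here), per the submitters' processing notes. That these are linear and not log values was judged from their range. Since RMA equalises the distributions, differences in total RNA between tissues are not visible. Array medians ran from 123.15 to 130.35, Spearman correlations between arrays from 0.946 to 0.993, and the number of arrays limits precision. Of 22690 probe sets, 20393 named 1 gene, 691 several and 1606 none in the platform annotation table; the last 2 kinds were left out. Each of the 12394 genes was read from its brightest probe set. A listed symbol was matched as written or, for 1 member, through RefSeq synonyms. Log2(intensity + 1) was fitted by lmFit and eBayes of limma 3.58.1 under R 4.3.3 (2-sided; Benjamini-Hochberg over all genes; threshold 0.05), after a check on simulated data. Every measured member is described, and of each further list of pathway genes at most the 4 of smallest p. Named outside this rule, after their values were seen, are Atpif1, Atp5sl and the markers Adipoq, Fabp4, Myh4, Ckm, Acta1 and Fabp3. Members and lists were chosen with earlier results of these data known. Promoter windows came from RefSeq, GRCm38.p6. Alternatives covered scaling, filters on dim probe sets, choice of probe set, pseudocount, variance model, array weights, a replicate block and arrays left out.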

Additional observations from a re-analysis of the deposited data

How the results depend on the processing

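No member passed an adjusted p of 0.05 by limma in the main analysis or under any of the 19 alternatives. In the main analysis 16 of 37 had a higher mean with unadjusted p below 0.05. The median log2 difference of the members stayed between 0.17 and 0.27. Leaving out 1 array at a time gave 7 to 17 members higher at an unadjusted p under 0.05, where 4.55% to 13.2% of all genes were (8.45% with all arrays). It gave 0 to 1 members lower at that p, where 0.775% to 4.62% of all genes were (1.99% with all arrays). The 1 was Cox7a2l, without control replicate 1, a fit in which 4.62% of all genes were lower. Clear of the controls were 24 to 28 members, and 13.6% to 24.4% of all genes (11.5% with all arrays). Median log2 differences in these fits were 0.30 to 0.39 in complex II and 0.23 to 0.37 in complex III with cytochrome c. They were 0.18 to 0.24 in complex IV and 0.15 to 0.22 in complex V. Without control replicate 3 and YY1bKO replicate 1 together, 4 members were higher at that p (4.2% of all genes) and the complex V median was 0.11; without control replicate 2 and YY1bKO replicate 1 together, chosen after seeing the data, 5 were (3.71%). These fits hold fewer arrays. With probe sets free of a suffix preferred, the complex IV median was 0.12, and Cox5b (-0.17) and Atp5c1 (-0.11) turned negative, since dimmer probe sets then stood for them. In that setting dimmer probe sets also stood for Uqcrq, Cox17 and Uqcr10. Uqcrq fell from 0.77 to 0.03 and Cox17 from 0.39 to 0.09, while Uqcr10 rose from 0.26 to 1.05. With 1 array left out Cox15 ranged from -0.08 to 0.14 (0.05 with all arrays). It turned to -0.05 without control replicate 3, -0.08 without YY1bKO replicate 1, -0.18 without both and -0.03 without control replicate 2 and YY1bKO replicate 1. Atp5f1 turned to -0.02, -0.01 and -0.10 in the first 3 of these. Quantile normalization left 17 members clear of the controls, where 11.4% of all genes were. Subtraction of array medians left 19 members clear of them, where 11% of all genes were. Deviations from the group means correlated at 0.61, 0.10 and 0.03 between arrays with the same replicate number. Between arrays with unlike numbers they correlated at -0.65 to 0.60, the highest being control replicate 3 with YY1bKO replicate 2. With 3 arrays per group these values cannot decide whether equal numbers mark pairs, and the labels do not say. With the replicate block, 11 members were higher with unadjusted limma p below 0.05 (8.61% of all genes). After adjustment 0 members passed in that fit, beside 1 of all 12394 genes. Depth in the sense of counts does not apply to arrays, and low signal over background limits Cox7c and Cox15.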
